A study of Homo sapiens with 6 samples.

Results

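The metallothionein genes MT1E, MT1F, MT1G, MT1X and MT2A and their regulator MTF1 were followed in polysome-associated RNA of 3 established breast cancer cell lines. They were picked by symbol, and all 6 were present among the 30726 symbols of the deposited table. Each line gave 1 library after 8 hours at 1% oxygen (hypoxia) and 1 library at 21% oxygen (normoxia), so that 6 libraries were compared. All 3 lines carry the label WT. SUM1315 is triple negative, SKBR3 is a luminal HER2+ line and T47D is luminal A. Cycloheximide, a drug that freezes ribosomes on mRNA, was given before lysis, and RNA was taken from the polysome part of sucrose gradients. Each line is a single culture model grown in its own medium, with insulin in that of SUM1315 and T47D and not in that of SKBR3, so line and medium cannot be told apart. The values were read as RPKM, a read count divided by transcript length and by library size. A value is thus a share of the polysome RNA sequenced, and a change of mRNA amount cannot be told apart from a change of ribosome loading, nor fewer cells from less RNA per cell.

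Metallothioneins are small cysteine-rich proteins that bind zinc, copper and cadmium and buffer their free level in the cell. MTF1 is a zinc finger transcription factor that senses zinc and binds metal response elements in metallothionein promoters. Metallothionein genes are known for induction by metals, glucocorticoids and oxidative stress, and in some cells by low oxygen through MTF1. MT2A is the main isoform of many human tissues, and the MT1 genes are its tandem copies.

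The 5 metallothionein genes lie together at chr16:56608199-56684196 (GRCh38, GENCODE release 29), in the order MT2A, MT1E, MT1F, MT1G and MT1X, with MT1G on the minus strand and the others on the plus strand. MTF1 is at chr1:37809567-37859620 on the minus strand. The principal transcript of each metallothionein gene has 3 exons and a coding sequence of 186 bases, stop codon included. The coding sequences of MT2A and MT1X are shown because they illustrate how close the copies are. They run 5′ to 3′ with exons joined, from chr16:56608656-56609354 and chr16:56682541-56684049 on the plus strand, and capitals mark the 14 bases at which the pair differs.
MT2A coding sequence: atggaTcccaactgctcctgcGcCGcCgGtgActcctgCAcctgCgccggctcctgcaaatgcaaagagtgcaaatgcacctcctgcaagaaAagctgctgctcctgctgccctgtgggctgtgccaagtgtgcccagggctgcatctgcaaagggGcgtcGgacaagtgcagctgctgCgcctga
MT1X coding sequence: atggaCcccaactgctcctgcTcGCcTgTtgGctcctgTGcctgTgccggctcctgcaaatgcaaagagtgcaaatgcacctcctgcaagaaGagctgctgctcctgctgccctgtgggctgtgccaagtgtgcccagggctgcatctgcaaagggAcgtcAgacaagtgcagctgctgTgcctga
Over all pairs of the 5 genes, identity of the coding sequences ranged from 88.7% (MT1F and MT1X) to 95.2% (MT1G and MT2A). The longest identical run was 96 bases, between MT1G and MT1X. Reads that fall inside such a run cannot be assigned to 1 gene. Of all windows of 50 bases in the annotated transcripts of a gene, 3.02% for MT2A, 7.10% for MT1E, 16.5% for MT1G, 18.3% for MT1X, 1.22% for MT1F and 0.640% for MTF1 also occurred in another gene. With windows of 100 bases, none of the windows of MT2A, MT1E, MT1F, MT1G and MTF1 did, and 11.3% of those of MT1X did. The other gene there was AC026461.1, a noncoding transcript that overlaps MT1X on the same strand and was listed at 0.0374 RPKM or less in every library. Counting only windows shared with another metallothionein gene or pseudogene, the share of 50-base windows was 3.64% for MT1X, against 16.5% for MT1G and 7.10% for MT1E. The sources used here do not give a read length, and MT1G had the highest share of the 5 genes at 50 and at 75 bases (5.73%). All these shares are of distinct windows pooled over every annotated transcript of a gene, not over the principal one alone. At 50 bases there were 1867 such windows for MT1X and 844 for MT1G, whose principal transcripts have 450 and 406 bases. The share within the principal transcript was not computed and may be higher. All matches counted were exact, and sharing with mismatches was not computed.

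The promoters of MT2A and MT1X are shown because they hold the elements that MTF1 is known to bind. They are the 250 bases before the RefSeq start (GRCh38.p14), chr16:56608334-56608583 and chr16:56682220-56682469, both on the plus strand, 5′ to 3′. Capitals mark matches to the core of the metal response element, TGCACNC or TGCGCNC on either strand.
MT2A promoter: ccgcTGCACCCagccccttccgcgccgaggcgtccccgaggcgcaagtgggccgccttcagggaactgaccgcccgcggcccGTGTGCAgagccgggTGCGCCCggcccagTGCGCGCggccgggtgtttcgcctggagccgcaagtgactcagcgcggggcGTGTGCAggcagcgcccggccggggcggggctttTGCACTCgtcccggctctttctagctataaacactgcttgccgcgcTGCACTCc
MT1X promoter: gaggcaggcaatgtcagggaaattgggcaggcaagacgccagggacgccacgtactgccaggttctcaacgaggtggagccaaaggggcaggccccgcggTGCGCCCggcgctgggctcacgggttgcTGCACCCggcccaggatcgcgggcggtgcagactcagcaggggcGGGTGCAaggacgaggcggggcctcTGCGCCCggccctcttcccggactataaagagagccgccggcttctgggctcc
MT2A had 7 matches and MT1X had 4. Of 35116 RefSeq promoters of this length, 24.8% held at least 1 match and 0.370% held 4 or more. The MTF1 promoter held none in this window. The core of the hypoxia response element, ACGTG or GCGTG on either strand, occurred once each in the MT2A and MT1X windows and 2 times in that of MTF1, and in 43.2% of all promoters. The MT2A match overlapped a metal response element match. A match is a description of letters and not a binding site. RefSeq entries for 3 of the 6 genes (MT2A, MT1X and MTF1) were used, and those of MT1E, MT1F and MT1G were not used here. The principal GENCODE transcript of MT2A, 786 bases long, starts upstream of the window shown, at chr16:56608199. The window shown thus lies inside that transcript.

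Before the members are described, the labels and depth were checked against the files. From the size of the smallest steps in the values, 1 RPKM on a transcript of 1 kb stood for 21.7 to 33.4 reads or read pairs. Between 9675 and 10842 genes per library were at 1 RPKM or more. Of 8 HIF targets taken as a check of the oxygen labels, all 7 that passed the expression filter rose (as did 4.12% of all genes), with log2 fold changes of 1.37 (PDK1) to 3.60 (DDIT4), and VEGFA, SLC2A1, ADM, ANKRD37 and BNIP3 in between. CA9, below the filter, was at 9.40 and 0.316 RPKM in hypoxic and normoxic SKBR3. The 5 mesenchymal markers VIM, AXL, CD44, SNAI2 and CAV1 were at 3.96 to 1161 RPKM in SUM1315 and at no more than 9.17 RPKM elsewhere. The 4 genes of the HER2 amplicon were at 53.5 to 743 RPKM in SKBR3 and at no more than 13.6 RPKM elsewhere. The receptors ESR1 and PGR were at 4.54 to 11.02 RPKM in T47D and under 0.04 RPKM elsewhere. GATA3, FOXA1 and TFF1, the other T47D markers, were at 39.5 to 352 RPKM in T47D. In SKBR3, FOXA1 and TFF1 were at 27.2 to 67.6 RPKM and GATA3 at 6.95 and 8.89 RPKM under hypoxia and normoxia. Of 8 leukocyte, fibroblast and endothelial markers, 7 stayed under 1 RPKM in all libraries, with COL3A1 at 0. The exception was COL1A1, at 119 and 91.7 RPKM in hypoxic and normoxic SUM1315 and at 2.34 and 1.75 RPKM in T47D.

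MT2A supplied most of the metallothionein RNA on polysomes in all 3 lines. In SUM1315 MT2A was at 1057 RPKM under hypoxia and 899 RPKM under normoxia. In SKBR3 it was at 157 RPKM under hypoxia and 246 RPKM under normoxia. In T47D it was at 67.4 RPKM under hypoxia and 48.0 RPKM under normoxia. The lines did not overlap: both SUM1315 libraries stood above both SKBR3 libraries, and these above both T47D libraries. MT2A was the 13th and 18th highest gene of the table in hypoxic and normoxic SUM1315, the 299th and 170th in SKBR3 and the 845th and 1111th in T47D. It made up 82.5% to 90.1% of the summed RPKM of all metallothionein rows of a library.

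Of the metallothioneins read in every line, MT1E had the widest range between lines. It was at 183 RPKM in hypoxic SUM1315 cells and 150 RPKM in normoxic ones. In SKBR3 it was at 0.963 RPKM under hypoxia and 0.853 RPKM under normoxia, and in T47D at 1.63 RPKM under hypoxia and 1.30 RPKM under normoxia. The lowest SUM1315 library was thus 156 times the highest SKBR3 library and 92.1 times the highest T47D library. In SUM1315 MT1E made up 14.3% of metallothionein RPKM under hypoxia and 13.9% under normoxia, against at most 2.44% in a library of another line.

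MT1X was at 33.9 RPKM in hypoxic SUM1315 cells and 22.7 RPKM in normoxic ones. It was at 13.1 RPKM in hypoxic SKBR3 cells and 28.5 RPKM in normoxic ones, and at 2.81 RPKM in hypoxic T47D cells and 2.30 RPKM in normoxic ones. Here SUM1315 and SKBR3 overlapped and both stood above T47D. MT1F, by contrast, was read in both luminal lines and not in SUM1315, and MT1G in SKBR3 alone. MT1F was at 1.05 RPKM in hypoxic SKBR3 cells and 1.74 RPKM in normoxic ones, at 3.21 RPKM in hypoxic T47D cells and 1.57 RPKM in normoxic ones, and at 0 in both SUM1315 libraries. MT1G was at 3.90 RPKM in hypoxic SKBR3 cells and 7.25 RPKM in normoxic ones and at 0 in the other 4 libraries. At the length of their principal transcripts, a count of 0 allows up to 3 reads, which is 0.198 (hypoxia) and 0.200 (normoxia) RPKM for MT1F in SUM1315. For MT1G it is 0.306 to 0.341 RPKM in the 4 libraries of SUM1315 and T47D. The lower SKBR3 library was at 5.26 times the higher SUM1315 floor for MT1F. For MT1G it was at 11.5 times the higher floor of SUM1315 and 11.7 times that of T47D. These floors cover counting error only. They leave out how reads shared between copies were assigned, which the sources used here do not give. AC026461.1, for example, stood at 4.9e-32 RPKM in hypoxic SUM1315, far below the value of a read. A value of 0 therefore need not mean that no read came from the gene.

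MTF1 was far lower than MT2A on the RPKM scale and spanned a narrower range. It was at 3.10 RPKM in hypoxic SUM1315 cells and 3.67 RPKM in normoxic ones. SKBR3 had 1.94 RPKM under hypoxia and 2.56 RPKM under normoxia, and T47D had 1.57 RPKM under hypoxia and 1.53 RPKM under normoxia. The order of the lines was that of MT2A, without overlap, and the share of all genes so ordered was not counted. Between normoxic SUM1315 and normoxic T47D the range was 2.40 times, against 18.7 times for MT2A.

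**Figure D1:**
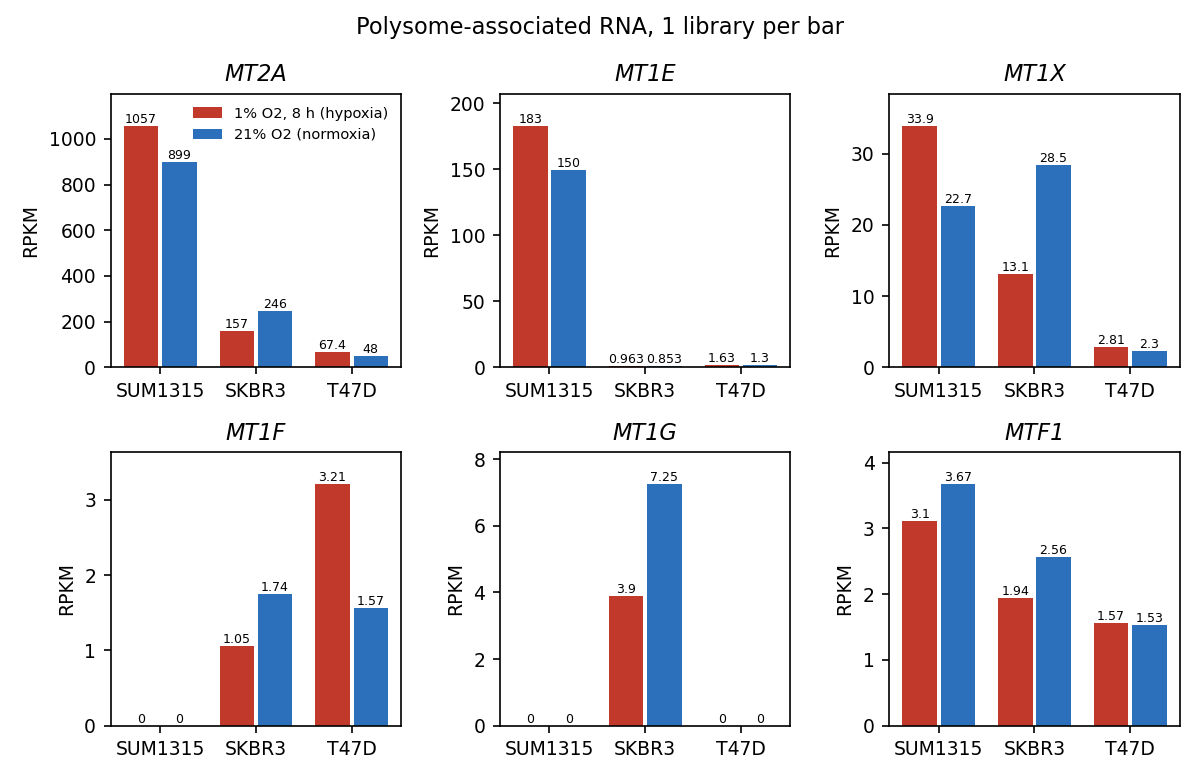
RPKM (vertical axes, linear, a scale for each gene) of the 5 metallothionein genes and MTF1 by cell line, with hypoxia in red left of normoxia in blue and 1 library per bar, so that no error bar can be drawn. MT2A and MT1E were highest in SUM1315, MT1G was read in SKBR3 alone (3.90 and 7.25 RPKM) and MT1F was at 0 in SUM1315.

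The lines were compared in a limma fit across all genes on log2(RPKM + 1), with oxygen as a covariate and Benjamini-Hochberg adjustment. Only genes that reached 1 RPKM in 3 libraries or more entered, 10253 in all, and of the members MT1G alone was left out. The spread is that between the 2 libraries of a line after removal of the common oxygen effect, and may be technical. Lines differed at adjusted p under 0.05 in 69.8% of genes for SUM1315 minus SKBR3, 69.2% for SUM1315 minus T47D and 57.9% for SKBR3 minus T47D, so a call between lines is common. MT2A was higher in SUM1315 than in SKBR3 by 2.31 ± 0.26 on the log2 scale (SE, limma adjusted p = 2.54e-05). SUM1315 was above T47D by 4.07 ± 0.26 (adjusted p = 4.83e-07), and SKBR3 was above T47D by 1.77 ± 0.26 (adjusted p = 0.000257). MT1E was higher in SUM1315 than in SKBR3 by 6.45 ± 0.17 and than in T47D by 6.08 ± 0.17 (limma adjusted p = 2.16e-09 and 3.22e-09). SKBR3 and T47D were not separated for MT1E (-0.37 ± 0.17, 95% interval -0.74 to 0.00498, adjusted p = 0.083). MT1X was higher in SUM1315 and in SKBR3 than in T47D (3.02 ± 0.32 and 2.52 ± 0.32, limma adjusted p = 1.71e-05 and 9.75e-05). SUM1315 minus SKBR3 gave 0.50 ± 0.32 for MT1X (95% interval -0.21 to 1.20, adjusted p = 0.18), a value that ran from -0.23 to 1.22 when 1 library was left out in turn. Its sign turned without hypoxic SKBR3, and it was 0.99 without normoxic SUM1315 and 1.22 without normoxic SKBR3. Fits with 1 library left out have 1 residual degree of freedom, so passing in them leans on the spread of other genes.

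MT1F was lower in SUM1315 than in SKBR3 and T47D (-1.25 ± 0.22 and -1.72 ± 0.22, limma adjusted p = 0.000598 and 7.12e-05). As SUM1315 was at 0, these fold changes depend on the pseudocount of 1: they were -3.87 and -4.55 with 0.1, and -0.35 and -0.55 with 5, each past the threshold in limma. SKBR3 minus T47D gave -0.47 ± 0.22 for MT1F (95% interval -0.97 to 0.028, adjusted p = 0.095). The value stayed at -0.47 without either SUM1315 library. It was -0.86 without normoxic SKBR3 and -0.93 without normoxic T47D. Without hypoxic SKBR3 it was -0.082 and without hypoxic T47D -0.0080. MTF1 was higher in SUM1315 than in T47D (0.78 ± 0.15, limma adjusted p = 0.0010) and than in SKBR3 (0.43 ± 0.15, adjusted p = 0.025). The call against SKBR3 was lost with median-of-ratios scaling (0.26, adjusted p = 0.14), which lowered the median of all genes in that contrast by 0.19. It was also lost without the hypoxic (0.46) or normoxic (0.41) SUM1315 library or the hypoxic SKBR3 library (0.34), in fits with 1 residual degree of freedom. Without an expression filter, 4 of the calls above were lost in limma: MT1F and MTF1 between SUM1315 and SKBR3 (adjusted p = 0.074 and 0.071) and MT1X and MT2A between SKBR3 and T47D (adjusted p = 0.051 and 0.053). SKBR3 and T47D were not separated for MTF1 (0.35 ± 0.15, 95% interval 0.0089 to 0.68 before adjustment, adjusted p = 0.073).

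The comparison of hypoxia with normoxia asks how low oxygen alters the set of mRNAs on polysomes, the purpose stated for the series. No metallothionein and not MTF1 passed it over the 3 lines. In limma with cell line as a block, 0 of the 5 members tested had an adjusted p under 0.05, beside 6.38% of all genes called (4.12% higher and 2.26% lower). At an unadjusted p under 0.05 there were 0 of the 5 members and 26.3% of all genes. The log2 fold change of MT2A was 0.02 ± 0.21 (SE, n = 3 lines, adjusted p = 0.95, 95% interval -0.45 to 0.50). MT1E had 0.19 ± 0.14 (limma adjusted p = 0.40, interval -0.12 to 0.49), with a higher value under hypoxia in 3 of 3 lines. In SKBR3 and T47D MT1E was at no more than 1.63 RPKM, and counting intervals of its ratio there included 1. The share of all genes higher in 3 of 3 lines was not counted. MT1X had -0.10 ± 0.26 (limma adjusted p = 0.84, interval -0.68 to 0.48). MT1F had 0.10 ± 0.18 (limma adjusted p = 0.76, interval -0.31 to 0.50), with SUM1315 entering at 0 in both libraries. MTF1 had -0.15 ± 0.12 (limma adjusted p = 0.47, interval -0.42 to 0.13). MT1G was below the filter, and with a filter of 1 RPKM in at least 2 libraries it had -0.25 ± 0.16 (limma adjusted p = 0.36), from SKBR3 alone. The median over the 5 members was 0.02, against -0.0067 over all genes tested. The direction depended on the lines included. Without SKBR3 the limma value was 0.36 for MT2A (adjusted p = 0.26), 0.38 for MT1X (0.17) and 0.36 for MT1F (0.24), and without T47D it was -0.20 for MT2A, -0.25 for MT1X and -0.21 for MT1F. Without SUM1315 it was -0.080 for MT2A and -0.43 for MT1X. None of these passed, and the intervals do not show that the genes were unaltered by oxygen.

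The lines went in different directions, and the metallothioneins of a line tended to one side. In SKBR3, hypoxic over normoxic RPKM was 0.639 for MT2A, 0.461 for MT1X, 0.538 for MT1G and 0.605 for MT1F. These 4 of the 5 members at 1 RPKM or more in either library were lower under hypoxia by 1.5 times or more, as were 10.4% of all genes at that level in SKBR3, and 0 of 5 were higher by as much, as were 12.3% of genes. MT1E, under 1 RPKM there, had a ratio of 1.13. In SUM1315 the ratio was 1.18 for MT2A, 1.22 for MT1E and 1.497 for MT1X, each above 1. None of the 4 members at 1 RPKM or more there was higher by 1.5 times, which 13.8% of genes were, and 0 were lower by as much, as were 4.41% of genes. In T47D the ratio was 1.41 for MT2A, 1.25 for MT1E, 1.22 for MT1X and 2.05 for MT1F. Of 5 members, MT1F alone was higher by 1.5 times or more there, as were 17.2% of genes, and 0 were lower by as much, as were 11% of genes. The medians of the log2 ratio over all genes at 1 RPKM or more were 0.033 (SUM1315), -0.064 (SKBR3) and 0.058 for T47D.

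Every ratio here rests on a single pair of libraries, with no test. Exact 95% intervals for counting error, from the reads implied at the principal transcript, ran from 1.15 to 1.20 for MT2A in SUM1315. In SKBR3 the bounds were 0.613 and 0.666, and in T47D 1.29 and 1.53. None of the 3 included 1, and that of SKBR3 lay apart from the others. For MT1X the interval was 1.26 to 1.78 in SUM1315 and 0.382 to 0.553 in SKBR3, while that of T47D, 0.684 to 2.17, included 1. For MT1F it was 0.335 to 1.06 in SKBR3 and 1.25 to 3.43 in T47D. For MT1E it included 1 in SKBR3 (0.580 to 2.27) and T47D (0.668 to 2.30) and not in SUM1315 (1.16 to 1.29). These intervals leave out all variation between cultures. Those of MT2A rest on its 786-base transcript, and a shorter one would give fewer implied reads and wider intervals. Intervals of the other genes depend on their principal transcripts in the same way. Implied reads were rounded, though some were not whole, such as 18.7 for MT1E in hypoxic SKBR3 and 221.5 for MT1X in normoxic SUM1315. The MTF1 ratio was 0.846 in SUM1315, 0.757 in SKBR3 and 1.02 in T47D. In SUM1315 it was thus lower under hypoxia while MT2A, MT1E and MT1X were higher.

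**Figure D2:**
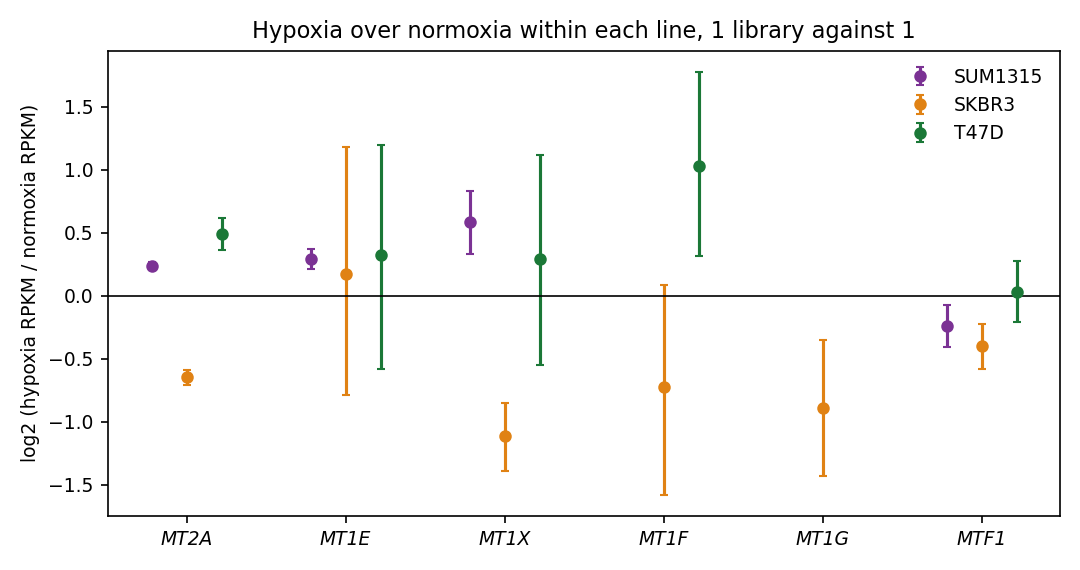
Log2 ratio of hypoxia to normoxia RPKM (vertical axis) for each gene (horizontal axis) in SUM1315, SKBR3 and T47D, 1 library against 1. Bars are exact 95% intervals for counting error only, and genes at 0 in both libraries of a line have no point. In SKBR3 MT2A, MT1X, MT1F and MT1G lie below 0 and MT1E lies above 0 with an interval that includes it. Every metallothionein point of SUM1315 and T47D lies above 0.

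The difference between lines was tested in a limma fit with a term for 1 line's own response, added after the values were seen and run for each line against the other 2 lines. It has 1 residual degree of freedom and leans on the spread of other genes. For SKBR3, 0 of 5 members passed and 3 had an unadjusted p under 0.05, as had 9.64% of all genes. The difference from the other lines was -1.45 ± 0.29 on the log2 scale for MT1X (limma adjusted p = 0.27), -1.001 ± 0.33 for MT2A (adjusted p = 0.41) and -0.77 ± 0.30 for MT1F (adjusted p = 0.47). With limma, 0.00975% of all genes passed for SKBR3, 0.205% for SUM1315 and 0% for T47D, so few genes could be called at all. In SUM1315 and in T47D 0 of 5 members passed, and 1 had an unadjusted p under 0.05 in each, as had 4.15% (SUM1315) and 5.1% (T47D) of all genes: MT1X in SUM1315 (0.99 ± 0.42, limma adjusted p = 0.99) and MT1F in T47D (0.92 ± 0.27, adjusted p = 0.91). The opposite directions of SKBR3 and the other lines for MT2A and MT1X, and of SKBR3 and T47D for MT1F, are therefore a description of these 6 libraries. MT1E did not share them, with ratios above 1 in every line, and MTF1 was lower under hypoxia in both SKBR3 and SUM1315.

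Summed over all 11 metallothionein rows of the table, which lessens the effect of reads divided between copies, SUM1315 had 1282 RPKM under hypoxia and 1073 RPKM under normoxia, a ratio of 1.19. SKBR3 had 176 RPKM under hypoxia and 284 RPKM under normoxia, a ratio of 0.620. T47D had 75.3 RPKM under hypoxia and 53.3 RPKM under normoxia, a ratio of 1.41. Metallothioneins thus took up 0.504% and 0.415% of the RPKM sum in hypoxic and normoxic SUM1315, 0.0649% and 0.104% in SKBR3, and 0.0253% and 0.0186% in T47D. The MT1X share of the sum was 7.45% in hypoxic and 10.0% in normoxic SKBR3, and at most 4.33% in the libraries of the other lines.

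**Figure D3:**
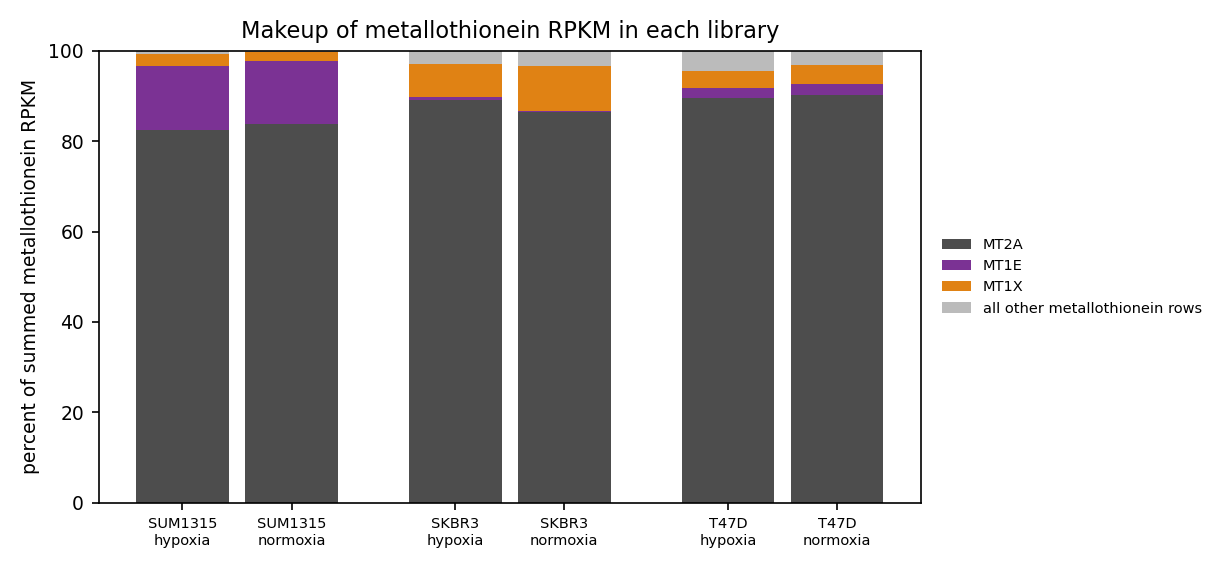
Percent of the summed metallothionein RPKM of each library (vertical axis, 0 to 100) that came from MT2A, MT1E, MT1X and all other metallothionein rows. MT2A made up 82.5% to 90.1%, MT1E made up 14.3% and 13.9% in hypoxic and normoxic SUM1315, and MT1X made up 7.45% and 10.0% in SKBR3 and 3.74% and 4.33% in T47D, where MT1F, among the other rows, had 4.26% and 2.94%.

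Of 16 further metallothionein genes and pseudogenes on the list, 6 were in the table, and MT1L alone reached 1 RPKM in any library. MT1L, annotated as a transcribed pseudogene between MT2A and MT1E at chr16:56617476-56618818 on the plus strand, was at 7.52 RPKM in hypoxic SUM1315 cells and 2.13 RPKM in normoxic ones. Its values fell on whole reads at the length of its 411-base transcript, 68.0 reads under hypoxia and 19.0 under normoxia, a ratio of 3.53 (exact 95% interval for counting error 2.10 to 6.21). SKBR3 had 0 RPKM under hypoxia and 0.0728 RPKM under normoxia, and T47D had 0.109 RPKM under hypoxia and 0.101 RPKM under normoxia, which is 1 read or none per library. Both MT1L and MT1E were therefore read mainly in SUM1315. No window of 50 bases of MT1L occurred unchanged in MT1E, but sharing with mismatches was not computed. With a filter of 1 RPKM in at least 2 libraries, MT1L had a log2 fold change of 0.45 ± 0.27 over the lines (limma adjusted p = 0.35). In SUM1315, 13.8% of genes were higher under hypoxia by 1.5 times or more. MT1A, MT1H, MT1M, MT1P3 and MT3 were at 0 to 0.406 RPKM.

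The genes next to the cluster were looked at for position alone. On the side before MT2A, the nearest coding genes kept by the filter were the oxygenase OGFOD1 and NUDT21, a subunit of the mRNA 3′ end processing machinery. OGFOD1 was at 3.20 RPKM in hypoxic SKBR3 cells and 3.94 RPKM in normoxic ones and NUDT21 at 15.6 and 20.2 RPKM. Both were lower under hypoxia in 3 of 3 lines, with log2 ratios of -0.79 to -0.30 for OGFOD1 and -0.66 to -0.14 for NUDT21. The share of all genes lower in 3 of 3 lines was not counted. After MT1X came the nuclear pore gene NUP93, with log2 ratios of 0.28 to 0.46, and HERPUD1, an endoplasmic reticulum stress gene, with 1.31 in SUM1315, 0.36 in SKBR3 and -0.32 in T47D. None of the 4 passed in limma (adjusted p = 0.067 for OGFOD1, 0.17 for NUDT21, 0.30 for NUP93 and 0.27 for HERPUD1). OGFOD1 passed without SKBR3 (limma adjusted p = 0.047), in a fit with 1 residual degree of freedom.

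By the Pearson correlation of log2(RPKM + 1) over the 6 libraries, the genes most like MT1E were EMP3, FOSL1 and TPM2, each at r of 0.999. FOSL1, an AP-1 transcription factor, was at 259 and 237 RPKM in hypoxic and normoxic SUM1315 and at no more than 1.67 RPKM elsewhere. Those most like MT2A were SEC23IP, ZNF644 and GTSE1 (r = 0.997 to 0.998). For MT1X they were LRFN3, GSTA4 and UGDH (r = 0.993 to 0.997). LRFN3 was at 5.76 and 4.99 RPKM in hypoxic and normoxic SUM1315, 3.76 and 5.86 RPKM in SKBR3, and 1.75 and 1.73 RPKM in T47D. For MT1F they included H3C10 (r = 0.999) and DNAJC19 (r = 0.996), and for MTF1 they were USB1, CHST12 and TRIM26 (r = 0.995 to 0.996). The 6 points are 3 lines with 2 libraries each, and these values rank 10253 genes on them, so they are a description.

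Zinc and copper reach metallothioneins through transporters and chaperones, which were looked at next. Of 24 zinc transporters, 15 passed the expression filter, and in limma 0 rose and 0 fell under hypoxia, with 2 of 15 at an unadjusted p under 0.05, beside 26.3% of all genes. Their median log2 fold change was -0.19, with 13 of 15 below 0, against -0.0067 for all genes, of which 5211 of 10253 were below 0. The importer SLC39A6 had the lowest value, -0.53 ± 0.17 (limma adjusted p = 0.082), at 7.39, 7.70 and 5.69 RPKM in hypoxic and 11.3, 8.54 and 11.6 RPKM in normoxic SUM1315, SKBR3 and T47D. It passed without SKBR3 (-0.73, limma adjusted p = 0.036), in a fit with 1 residual degree of freedom. The importer SLC39A14 had -0.33 ± 0.15 (limma adjusted p = 0.19). SLC30A1, the zinc exporter of the plasma membrane and a known MTF1 target, was at 1.74 RPKM in hypoxic SKBR3 cells and 2.94 RPKM in normoxic ones. It was at 3.09 RPKM in hypoxic SUM1315 cells and 2.96 RPKM in normoxic ones, and at 1.38 RPKM in hypoxic T47D cells and 1.37 RPKM in normoxic ones. SLC30A1 was thus lower under hypoxia in SKBR3, from a single pair of libraries, and close to level in the other lines (limma fold change -0.16 ± 0.14, adjusted p = 0.50).

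Of 12 genes of copper handling, 10 were tested, and 2 fell and 0 rose, with a median of -0.11, beside 2.26% of all genes that fell and 4.12% that rose. Those that fell were SCO1 (-0.68 ± 0.14, limma adjusted p = 0.025) and SCO2 (-0.62 ± 0.16, adjusted p = 0.047), which deliver copper to cytochrome oxidase. SCO1 was at 4.54, 2.79 and 3.39 RPKM in hypoxic and 8.40, 4.00 and 7.09 RPKM in normoxic SUM1315, SKBR3 and T47D. The SCO1 call was lost without T47D (adjusted p = 0.13), and that of SCO2 without any single line (adjusted p = 0.055 to 0.21) or with median-of-ratios scaling (adjusted p = 0.065). With a pseudocount of 5 both were lost (limma adjusted p = 0.056 for SCO1 and 0.070 for SCO2), as they were with genes at 1 RPKM in 2 libraries or more (0.053 and 0.079) and without a filter (0.42 and 0.43). The copper and zinc enzyme SOD1 had 0.00082 ± 0.17 (limma adjusted p = 1.00 after rounding).

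Of 7 genes reported as controlled by MTF1 apart from metallothioneins, 6 were in the table and 3 were tested, of which 1 fell, beside the same 2.26% of all genes. This was GCLC (-0.57 ± 0.13, limma adjusted p = 0.034), the catalytic subunit that makes the glutathione precursor. GCLC was lower under hypoxia in every line. SELENOH, a selenoprotein, had 0.37 ± 0.16 (limma adjusted p = 0.17). In SKBR3 SELENOH was at 27.4 RPKM under hypoxia and 23.1 RPKM under normoxia, unlike SLC30A1, the other gene tested, which was lower under hypoxia there. Of 10 NRF2 targets of the oxidative stress response, 9 were tested, and GCLC and its partner subunit GCLM (-0.66 ± 0.14, limma adjusted p = 0.024) fell and 0 rose, beside 2.26% and 4.12% of all genes, with a median of -0.17. GCLM was at 29.9, 6.35 and 1.93 RPKM in hypoxic and 49.8, 10.3 and 3.55 RPKM in normoxic SUM1315, SKBR3 and T47D. GCLC stands on both lists. Both calls were lost without T47D (limma adjusted p = 0.19 for GCLC and 0.078 for GCLM) and with a pseudocount of 5 (0.063 and 0.065). Without a filter both were lost (0.40 each), and with genes at 1 RPKM in 2 libraries or more that of GCLC was (0.063). HMOX1, the heme oxygenase, was at 302 RPKM in hypoxic SUM1315 cells and 157 RPKM in normoxic ones and between 5.25 and 5.55 RPKM in the other 4 libraries. Like MT1E and MT2A it was thus highest in SUM1315 (limma fold change 0.31 ± 0.20, adjusted p = 0.34).

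**Figure D4:**
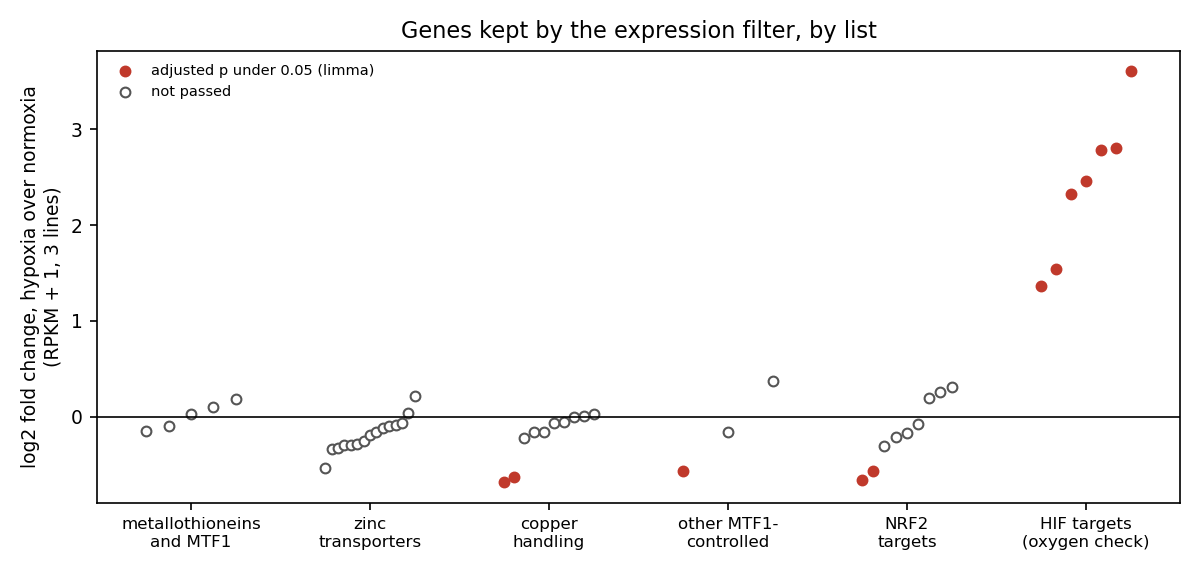
Log2 fold change of hypoxia over normoxia from limma on log2(RPKM + 1) over 3 lines (vertical axis) for each gene kept by the filter, by list (horizontal axis), ordered by value within a list. Filled red points passed at adjusted p under 0.05 and open points did not. The 5 tested members lie between -0.15 and 0.19 and none is filled, beside HIF targets at 1.37 to 3.60.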

How the data were processed

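Polysome-associated RNA of 3 cell lines was profiled at 2 oxygen levels, 1 library each. The authors deposited 1 table without a named unit. It was read as RPKM, because multiplying a value by transcript length gave whole numbers of a library's smallest step for 61.8% to 65.2% of the 3500 to 3904 genes with a single GENCODE release 29 transcript (tolerance 0.02 of a step, up to 100 reads), while the other values fell between steps. Trimmomatic, HISAT2, SAMtools, Partek, GRCh38 and hg38 are named in the submitters' processing notes, with no versions. The sources used here do not give the counting method, annotation, read length or strand.

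RPKM was used as the authors deposited it, as log2(RPKM + 1), keeping genes that reached 1 RPKM in 3 libraries or more. Limma 3.58.1 in R 4.3.3 was fitted over all 10253 genes (trend, two-sided, Benjamini-Hochberg), with cell line as a block. Residual degrees of freedom were 2 and prior ones 8.02. The lines give the pairing: after subtraction of oxygen group means, both libraries of a line correlated at 0.97, 0.94 and 0.94. No line has a replicate in the labels, and p-values therefore measure the spread between these libraries. Fold changes on this scale understate those of low genes. Counting intervals are exact (Clopper-Pearson, scipy 1.17.1) and cover counting error only. The fit was tested on simulated data. The members and lists were chosen with earlier results of these data known. Genes were named by rule: the 6 members, other metallothioneins at 1 RPKM or more, the called or 2 most changed genes of each list, and the 3 genes most correlated with each member, of which 1 is not reported here. Genes named outside it (SLC30A1, SOD1, HMOX1, the cluster's neighbours, further markers) were added afterwards. Alternatives were other pseudocounts and filters, median-of-ratios scaling, no block, no trend, and 1 line or library left out. Fits with 1 line or library left out have 1 residual degree of freedom and lean on the spread of other genes.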

Additional observations from a re-analysis of the deposited data

How the results depend on the processing

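Under 10 alternatives per gene, none of the 5 members tested passed for hypoxia against normoxia. The limma adjusted p was 0.17 (MT1X without SKBR3) or more, and 46 of 50 values kept their direction. With 1 line left out in turn, the log2 fold change ran from -0.20 to 0.36 for MT2A, from -0.43 to 0.38 for MT1X and from -0.21 to 0.36 for MT1F, so these change sign with the lines included. MT1E (0.14 to 0.24) and MTF1 (-0.23 to -0.083) kept theirs. CAV1, a line marker, ran from -0.0083 to 0.21. Without the replicate block for cell line, values did not move and adjusted p was 1.00 after rounding for all 5 (MT2A 0.02).

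The count of all genes called higher and lower, 422 and 232 as reported, was 171 and 72 with a pseudocount of 5, 209 and 67 with a filter of 1 RPKM in at least 2 libraries, 0 and 0 without a filter (2715 genes at an unadjusted p under 0.05 in limma), 0 and 0 without the replicate block (68 genes), 138 lower with median-of-ratios scaling, and 179 to 552 higher and 53 to 271 lower with 1 line left out. The cause was not tested.

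Without a filter, the line contrasts lost their calls for MT1F and MTF1 in SUM1315 minus SKBR3 (-1.25 and 0.43, adjusted p = 0.074 and 0.071) and for MT1X and MT2A in SKBR3 minus T47D (2.52 and 1.77, adjusted p = 0.051 and 0.053). With median-of-ratios scaling MTF1 had 0.26 in SUM1315 minus SKBR3. With a pseudocount of 0.1, SKBR3 minus T47D passed for MT1E (-0.63, adjusted p = 0.015). With 1 library left out, SUM1315 minus SKBR3 ran from -0.23 to 1.22 for MT1X and from 0.34 to 0.53 for MTF1, and SKBR3 minus T47D from -0.93 to -0.0080 for MT1F. The other 149 of 165 contrast values kept direction and call. The T47D response of MT1E against the other lines was -0.081 with a pseudocount of 5, against 0.0060 as reported. Scaling moved the median of all genes by -0.19 in SUM1315 minus SKBR3 and -0.16 in SUM1315 minus T47D. The SKBR3 log2 ratio of MT2A was -0.57 with that scaling, against -0.65.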
